A study of Mus musculus with 6 samples.

Results

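A set of 10 genes of triglyceride synthesis, lipid droplet coating and lipolysis was followed in HOXA9-immortalized granulocyte-macrophage progenitors (iGMPs), mouse bone marrow cells of the C57Bl/6 strain. The genes were picked by symbol (Dgat1, Dgat2, Gpam, Lpin1, Lpin2, Plin2, Plin3, Pnpla2, Lipe and Mgll), and all 10 of 10 were among the 34199 gene symbols counted and among the 12460 genes with enough reads to be tested. The set was chosen because Dgat2 rose after CAF-1 loss, so the comparison of CAF-1 OFF with control is given for these genes as a description, with intervals for the error and no p. iGMPs carry a Lysozyme-GFP reporter and an estrogen receptor-HOXA9 fusion that blocks differentiation while estradiol is present, and they grow in stem cell factor. In CAF-1 OFF cells, 500 µM IPTG induced a hairpin against Chaf1b, which encodes part of the chromatin assembly factor CAF-1, under 150 ng/ml estradiol. Control cells received IPTG as well, also under 150 ng/ml estradiol, and in HOXA9 OFF cells estradiol was washed out. All cells were collected at 24 h for bulk RNA-seq, with 2 libraries per group. The methods of the study describe an inducible control vector with a stuffer in place of the hairpin. The labels do not name the vector of the control libraries or say whether HOXA9 OFF cells received IPTG, and which clonal line gave which library is not given in the sources used here.

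Triglyceride is built on glycerol-3-phosphate by stepwise addition of fatty acids. Glycerol-3-phosphate acyltransferases such as Gpam start the chain, lipins remove the phosphate, and the diacylglycerol acyltransferases Dgat1 and Dgat2 add the last fatty acid. The product is stored in lipid droplets coated by perilipins and is broken down in turn by adipose triglyceride lipase (Pnpla2), hormone-sensitive lipase (Lipe) and monoacylglycerol lipase (Mgll). Dgat1 and Dgat2 carry out the same reaction but are unrelated in sequence. Lipid droplets are also found in myeloid cells, where the fatty acids they release can be oxidized or used to make signaling lipids.

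Gene counts ranged from 16773560 to 25170898 per library, and 3 counts were worth between 0.1178 and 0.1817 CPM (counts scaled to a common library size). Control libraries had 2290 and 1810 counts of the targeted gene Chaf1b, and CAF-1 OFF libraries 342 and 239, which matched the labels. HOXA9 OFF libraries had 1339 and 1012, and Chaf1b was called lower there than in control too (1.55-fold, edgeR FDR 0.0396). All 10 progenitor markers (among them Kit and Mpo) had counts in every library, but in HOXA9 OFF 6 of them (Kit, Cd34, Flt3, Ctsg, Myb and Sox4) were called lower than in control and 1 (Ms4a3) higher. In the same comparison, 8 of 9 tested markers of maturing neutrophils and 5 of 6 tested macrophage markers were called higher. Over all genes tested, 13.0% were called higher there and 8.97% lower. A single library stood apart, since HOXA9 OFF 2 held 291 counts of the macrophage gene C1qb against 0 to 4 in the other libraries. In these bulk samples, a larger number of cells of one kind and more RNA per cell cannot be told apart.

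The diacylglycerol acyltransferases were measured first. Dgat2 (chr7:106302173-106331223, minus strand) had 824 and 522 counts in control, 3855 and 4583 in CAF-1 OFF and 1778 and 917 in HOXA9 OFF. Scaled to library size, this was 32.3 and 30.3 CPM in control, 200 and 232 CPM in CAF-1 OFF and 85.7 and 55.6 CPM in HOXA9 OFF. The 3 groups did not overlap, with control lowest and CAF-1 OFF highest. Dgat1 (chr15:76332445-76342381, minus strand) was at 33.6 and 28.3 CPM in control and at 37.8 and 30.2 CPM in CAF-1 OFF, and it was at 98.5 and 75.4 CPM in HOXA9 OFF. The control and CAF-1 OFF libraries of Dgat1 overlapped, whereas both HOXA9 OFF libraries lay above all others.

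Earlier steps of synthesis showed other patterns. Gpam (chr19:55142142-55201824, minus strand), the mitochondrial acyltransferase of the first step, was at 69.8 and 62.9 CPM in control, 60.6 and 79.4 CPM in CAF-1 OFF and 36.7 and 39.6 CPM in HOXA9 OFF. Both HOXA9 OFF libraries were the lowest of the 6. Lpin1 (chr12:16542475-16596576, minus strand) had few reads, with 49 and 68 counts in control, 34 and 46 in CAF-1 OFF and 117 and 110 in HOXA9 OFF. At 1.92 and 3.95 CPM, the control libraries of Lpin1 differed 1.83-fold once a small constant was added to each. The CAF-1 OFF values of 1.77 and 2.33 CPM overlapped with them. Both HOXA9 OFF values of Lpin1, 5.64 and 6.66 CPM, were above the rest. Lpin2 (chr17:71531900-71599157, plus strand), which encodes another phosphatidate phosphatase, was at 39.4 and 38.1 CPM in control, 36.0 and 38.3 CPM in CAF-1 OFF and 32.9 and 39.7 CPM in HOXA9 OFF. Its 3 groups overlapped.

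The coat proteins differed from each other too. Plin2 (chr4:86294290-86315964, minus strand), a perilipin that sits on droplets in most cell types, was at 90.6 and 93.2 CPM in control, 71.3 and 69.7 CPM in CAF-1 OFF and 163 and 187 CPM in HOXA9 OFF. The 3 groups of Plin2 did not overlap, and CAF-1 OFF was lowest. Plin3 (chr17:56418385-56429934, minus strand), a perilipin also found in the cytosol, was at 81.2 and 102 CPM in control, 109 and 89.1 CPM in CAF-1 OFF and 120 and 149 CPM in HOXA9 OFF. Its CAF-1 OFF and control libraries overlapped, and its HOXA9 OFF libraries were the highest.

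Of the lipases, Pnpla2 (chr7:148641097-148646642, plus strand) was at 144 and 154 CPM in control, 162 and 124 CPM in CAF-1 OFF and 136 and 141 CPM in HOXA9 OFF. These values lay close together, with both HOXA9 OFF libraries just under both controls. Lipe (chr7:26164546-26183729, minus strand) was at 20.6 and 17.7 CPM in control, 19.8 and 20.8 CPM in CAF-1 OFF and 43.9 and 43.1 CPM in HOXA9 OFF. Both HOXA9 OFF libraries of Lipe were the highest, and the other 2 groups overlapped. Its exons share 264 bp with 4732471J01Rik on the opposite strand, which had 0 counts in all libraries. Mgll (chr6:88674406-88778354, plus strand) was at 20.5 and 8.35 CPM in control, 8.98 and 22.5 CPM in CAF-1 OFF and 51.8 and 16.7 CPM in HOXA9 OFF. With a small constant added to each CPM, replicates of Mgll differed by 2.38-fold, 2.42-fold and 3.05-fold within the 3 groups. On the same measure, the median gene with a mean of at least 5 CPM differed by 1.10-fold, 1.14-fold and 1.09-fold. All 3 groups of Mgll overlapped. Its exons share 90 bp with the antisense transcript Gm16628, which had 4 to 19 counts per library.

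**Figure D1:**
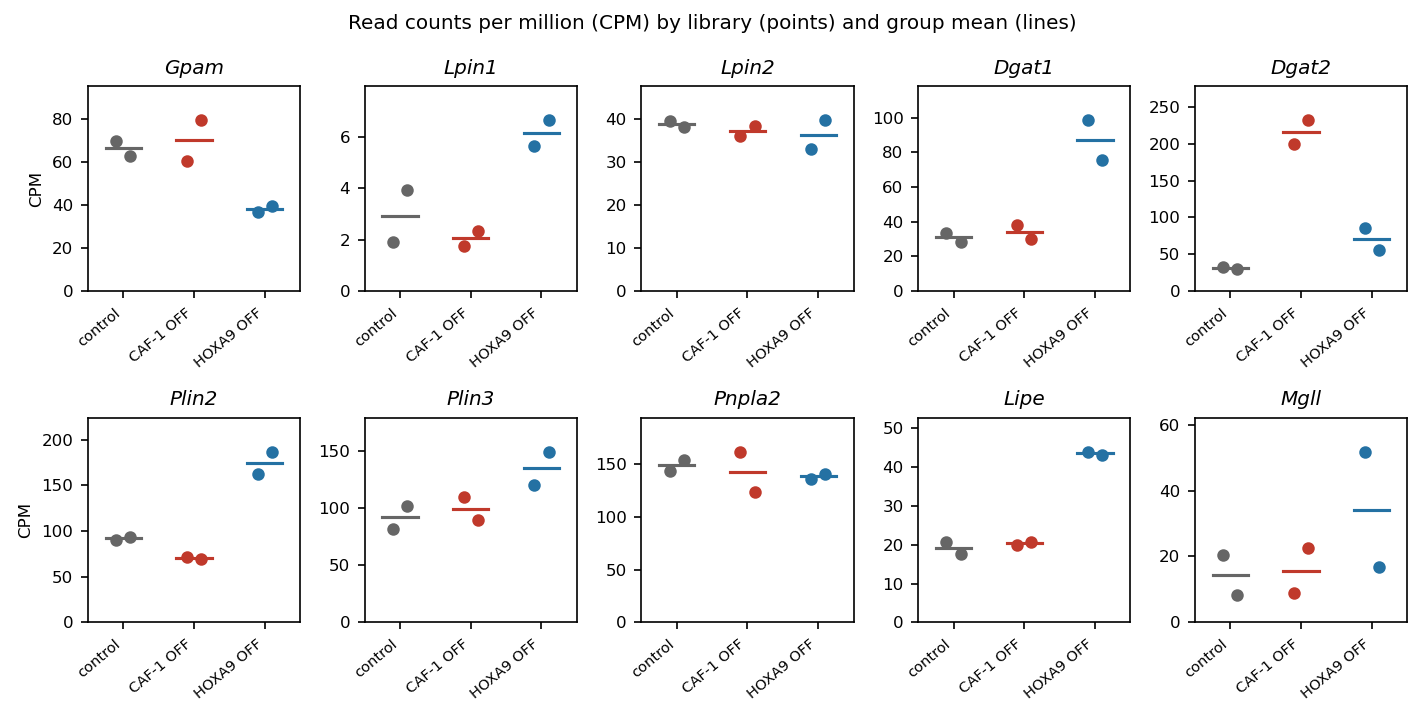
Points give the CPM (counts scaled to library size, y axis starting at 0, its own scale for each gene) of each of the 2 libraries in control, CAF-1 OFF and HOXA9 OFF, and lines give the group mean. Dgat2 is highest in CAF-1 OFF (200 and 232 CPM), whereas Dgat1, Plin2 and Lipe are highest in HOXA9 OFF.

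To ask which of these genes differed after 24 h of CAF-1 depletion, CAF-1 OFF was compared with control. Dgat2 was at 216 ± 22.4 CPM against 31.3 ± 1.46 CPM (mean ± SD, n = 2), a 6.89-fold difference and a log2 fold change of 2.79 ± 0.22 (SE, 95% interval 2.27 to 3.30). No other gene of the set reached 1.5-fold in the fitted values. Plin2 was the only other gene whose libraries did not overlap between the groups, at 70.5 ± 1.18 CPM in CAF-1 OFF against 91.9 ± 1.79 CPM in control, a log2 fold change of -0.38 ± 0.11 (95% interval -0.64 to -0.13). The libraries of CAF-1 OFF and control were therefore apart for 2 of 10 genes, where 40.1% of all tested genes were apart. At the call used throughout (at least 1.5-fold, edgeR quasi-likelihood false discovery rate, FDR, under 0.05), 1 of 10 was called and 0.0321% of all genes were. Since Dgat2 was chosen on this contrast, nothing is read from that count.

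Differences of the other acyltransferase and of the enzymes of earlier steps were smaller in CAF-1 OFF. Dgat1 was at 34.0 ± 5.37 CPM against 30.9 ± 3.72 CPM, a log2 fold change of 0.13 with a 95% interval from -0.30 to 0.57. The interval of Gpam ran from -0.28 to 0.44, and that of Lpin2 from -0.37 to 0.25. For Lpin1 the interval was wide, from -1.47 to 0.46 around -0.50. Among droplet coats and lipases, the log2 fold change was 0.11 for Plin3 (-0.30 to 0.52), -0.06 for Pnpla2 (-0.39 to 0.27) and 0.08 for Lipe (-0.23 to 0.40). Mgll, whose replicates disagreed, could not be placed, since its interval ran from -1.48 to 1.70. Over the 10 genes the median log2 fold change was 0.08, against -0.004 over all genes tested.

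Reads of Dgat2 made up 28.3% and 32.7% of the summed CPM of the 10 genes after CAF-1 loss, whereas control had 6.06% and 5.62%. The sum over the 10 genes was 707 and 708 CPM in CAF-1 OFF and 534 and 539 CPM in control. Without Dgat2 it was 507 and 476 CPM against 502 and 508 CPM, so the sum of the other 9 genes overlapped.

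To ask how the same genes stood after release of the HOXA9 block, HOXA9 OFF was compared with control. The control libraries are those on which Dgat2 was chosen, so its value is given as a description and it is left out of the counts. Of the other 9 genes, 4 were called, 3 higher (Dgat1, Plin2 and Lipe) and 1 lower (Gpam). Over all genes tested, 22.0% were called, 13.0% higher and 8.97% lower. Libraries of the 2 groups were apart for 7 of 9 genes, against 71.0% of all genes. The median log2 fold change was 0.93 over the 9 genes and -0.003 over all genes.

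Dgat1 rose 2.81-fold in HOXA9 OFF, to 86.9 ± 16.3 CPM, a log2 fold change of 1.49 ± 0.18 (SE, edgeR FDR 0.0023). Dgat2 was at 70.6 ± 21.3 CPM, 2.26-fold over control and 1.17 ± 0.21 on the log2 scale. For both acyltransferases of the last step each HOXA9 OFF library lay above both controls. Gpam fell to 38.2 ± 2.07 CPM from 66.3 ± 4.89 CPM (log2 fold change -0.80 ± 0.15, edgeR FDR 0.0102). Lpin1 was at 6.15 ± 0.723 CPM against 2.93 ± 1.43 CPM and missed the call (log2 fold change 1.08 ± 0.39, edgeR FDR 0.0815), although without control 2 it was called (1.67, edgeR FDR 0.0465). For Lpin2 the log2 fold change was -0.09 ± 0.13 (edgeR FDR 0.626). Gpam, of the first step, and Dgat1, of the last, therefore moved in opposite directions. Without HOXA9 OFF 1, Gpam lost its call (edgeR FDR 0.0621). Without HOXA9 OFF 2, the library with 291 counts of C1qb, Dgat1, Plin2, Lipe and Gpam were called as before.

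On the droplet side, Plin2 rose 1.90-fold, by 0.93 ± 0.11 on the log2 scale, and reached 175 ± 16.7 CPM (edgeR FDR 0.00188). Lipe rose 2.27-fold, by 1.18 ± 0.13 on the log2 scale, and reached 43.5 ± 0.568 CPM (edgeR FDR 0.00175). Plin3 was at 134 ± 21.0 CPM against 91.6 ± 14.7 CPM and was not called (log2 fold change 0.55 ± 0.17, edgeR FDR 0.0512). The log2 fold change of Pnpla2, the lipase of the first step, was -0.10 ± 0.14 with a 95% interval from -0.44 to 0.23 (edgeR FDR 0.612). Mgll had a log2 fold change of 1.24 ± 0.67 (edgeR FDR 0.207), which was 0.19 without HOXA9 OFF 1 and 2.03 without control 1. Plin2 and Lipe thus rose, Plin3 did not pass the test, and the interval of Pnpla2 left no room for a 1.5-fold change.

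**Figure D2:**
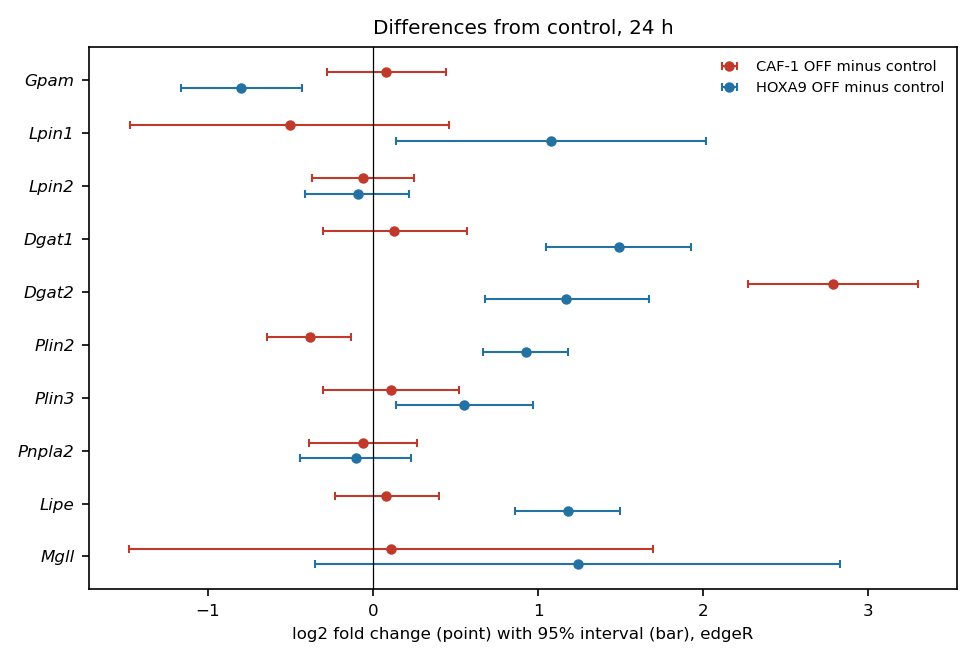
Points are log2 fold changes against control (x axis) from the edgeR fit for each gene (y axis), and bars are 95% intervals; red is CAF-1 OFF and blue HOXA9 OFF, which share the control libraries. In CAF-1 OFF, the contrast on which Dgat2 was chosen, Dgat2 lies at 2.79 and the other points between -0.50 and 0.13, whereas in HOXA9 OFF the intervals of Dgat1, Plin2, Lipe, Lpin1 and Plin3 lie above 0 and that of Gpam below.

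Setting CAF-1 OFF against HOXA9 OFF tested the difference between the 2 conditions itself, on libraries that also enter the other comparisons. Of the 9 genes other than Dgat2, 5 were called, where 22.1% of all genes were. Gpam was called higher in CAF-1 OFF (as were 9.56% of all genes), at a log2 difference of 0.88 ± 0.15 (edgeR FDR 0.00782). For Dgat2 the log2 difference of 1.61 ± 0.21 is given as a description. Those called lower in CAF-1 OFF (12.6% of all genes) were Dgat1, Lpin1, Plin2 and Lipe. Plin2 had a log2 difference of -1.31 ± 0.11 (edgeR FDR 0.000765), Dgat1 of -1.36 ± 0.18 (edgeR FDR 0.00324) and Lipe of -1.10 ± 0.13 (edgeR FDR 0.00233). For Lpin1 the log2 difference was -1.58 ± 0.40 (edgeR FDR 0.0267), a call that was lost without CAF-1 OFF 1, CAF-1 OFF 2, HOXA9 OFF 1 or HOXA9 OFF 2, where the edgeR FDR lay between 0.0561 and 0.108. Libraries of the 2 groups were apart for 6 of these 9 genes, against 66.7% of all genes.

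Ratios within pairs of related genes were computed from CPM per kb of merged exon, so that a longer gene does not count for more. Dgat2 made up 56.7% and 59.2% of the sum of Dgat1 and Dgat2 in control, 87.8% and 91.2% in CAF-1 OFF and 54.2% and 50.0% in HOXA9 OFF. The balance of the 2 enzymes in HOXA9 OFF was thus just under that in control, while both genes were higher. Plin2 made up 40.7% and 36.0% of the sum of Plin2 and Plin3 in control, 28.8% and 32.5% in CAF-1 OFF and 45.6% and 43.5% in HOXA9 OFF, with no overlap between the groups. Lpin1 made up 9.45% and 18.1% of the 2 lipins in control, 9.48% and 11.5% in CAF-1 OFF and 26.8% and 26.4% in HOXA9 OFF. The share of Pnpla2 in the sum with Lipe was 91.3% and 92.9% in control, 92.4% and 89.9% in CAF-1 OFF and 82.3% and 83.0% in HOXA9 OFF. With 2 libraries a group, an exact permutation test of a single share cannot go below 0.333, so none is given.

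**Figure D3:**
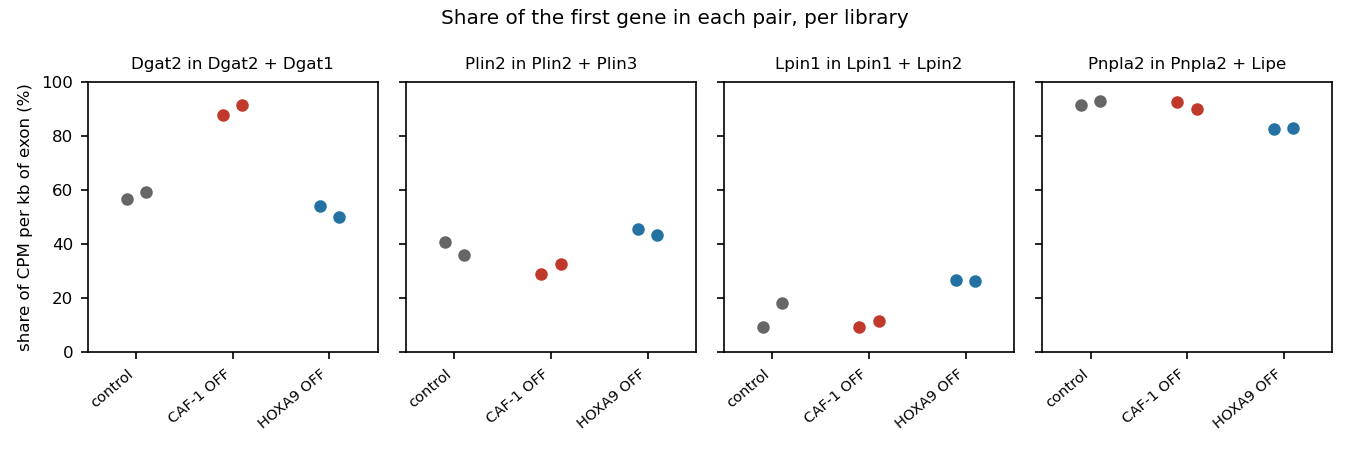
Each panel gives, per library (points), the share of the first gene in the summed CPM per kb of exon of a gene pair (y axis, percent). Dgat2 takes 87.8% and 91.2% in CAF-1 OFF and between 50.0% and 59.2% elsewhere, and the share of Lpin1 is highest in HOXA9 OFF.

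Levels could be ordered on the same scale of CPM per kb. In control Pnpla2 was highest at 49.3 ± 2.27 (SD, n = 2), followed by Plin3 at 42.4 ± 6.80, Plin2 at 26.2 ± 0.508, Dgat2 at 13.9 ± 0.649, Gpam at 10.5 ± 0.770 and Dgat1 at 10.1 ± 1.22. Gpam and Dgat1 did not differ beyond their spread, nor did Lpin2 (3.17) and Mgll (2.97), and Lpin1 was lowest at 0.513 CPM per kb. In CAF-1 OFF Dgat2 moved from the fourth place to the first, at 88.9 and 103 CPM per kb, ahead of Pnpla2 (47.3) and Plin3 (45.8), which overlapped. Its level was above that of 94.4% of 12269 genes with a known exon length in CAF-1 OFF, of 62.7% in control and of 79.9% in HOXA9 OFF. In HOXA9 OFF Plin3 (62.3) and Plin2 (49.8 CPM per kb) led, and Dgat1 and Dgat2 were both at 24.7 CPM per kb in the second library.

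Sequence upstream of the start was examined for members that moved in HOXA9 OFF, to show what the promoters hold. RefSeq windows (GRCm38.p6) of 250 bases before the start were given for 8 of the 10 genes, 13 windows in all, and not for Dgat1 and Dgat2. The window of Plin2 and the first listed windows of Lipe, which like Plin2 rose, and of Gpam, which fell, were found at 1 place each in NCBIM37, on the minus strand at chr4:86315964-86316213, chr7:26181007-26181256 and chr19:55201729-55201978. They read 5′ to 3′, with capitals at each match, on either strand, to the E-box CACGTG, the CCAAT box, the GC box GGGCGG, the TATA box TATAAA or the nuclear receptor core AGGTCA.
Plin2: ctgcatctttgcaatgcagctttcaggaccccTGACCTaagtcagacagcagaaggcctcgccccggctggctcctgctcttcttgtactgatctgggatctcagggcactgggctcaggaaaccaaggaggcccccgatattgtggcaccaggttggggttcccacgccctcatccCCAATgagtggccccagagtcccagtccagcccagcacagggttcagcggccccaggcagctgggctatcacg
Lipe: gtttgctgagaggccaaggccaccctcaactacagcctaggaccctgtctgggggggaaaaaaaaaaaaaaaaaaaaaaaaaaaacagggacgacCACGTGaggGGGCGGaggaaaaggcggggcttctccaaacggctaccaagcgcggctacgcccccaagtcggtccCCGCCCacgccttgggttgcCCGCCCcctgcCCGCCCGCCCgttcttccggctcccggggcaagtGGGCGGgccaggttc
Gpam: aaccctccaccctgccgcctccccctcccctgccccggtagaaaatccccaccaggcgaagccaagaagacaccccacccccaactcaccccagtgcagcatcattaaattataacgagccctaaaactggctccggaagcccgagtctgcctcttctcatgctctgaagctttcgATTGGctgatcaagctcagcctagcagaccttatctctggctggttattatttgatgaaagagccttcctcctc
These windows held 1 CCAAT and 1 AGGTCA for Plin2, 1 CACGTG and 6 GGGCGG (some of them overlapping) for Lipe, and 1 CCAAT for Gpam. Lipe and Gpam each have a second window, not printed here, at chr7:26175132-26175381 with no match and at chr19:55173968-55174217 with 1 GGGCGG and 1 AGGTCA. Over the 13 windows, CACGTG was found in 3, CCAAT in 4, GGGCGG in 7, AGGTCA in 3 and TATAAA in 0. Of 32536 windows of the same length in the table, 6.04% held CACGTG, 33.8% CCAAT, 33% GGGCGG, 14% AGGTCA and 12.3% TATAAA. These matches describe the letters only.

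The wider pathway was read from lists of other genes with related roles. In CAF-1 OFF against control, 0 of the 50 tested genes of the 5 lists were called by edgeR, and 0 by DESeq2. At an unadjusted edgeR p under 0.05 there were 2 of 10 other enzymes of triglyceride synthesis and 2 of 13 droplet proteins and lipolysis regulators. There were also 0 of 9 genes of fatty acid uptake and activation and 1 of 11 of fatty acid oxidation. Of the transcription factors and coactivators of lipid metabolism there were 2 of 7, beside 1330 of all 12460 genes. Median log2 fold changes of the lists were 0.01, -0.05, 0.02, -0.07 and -0.03. Without a filter on low counts, Mogat2 was called higher and Abhd6 lower, in a fit that called 378 genes in all where the main fit called 4. Several genes typical of storage tissue were listed at 0 counts in all 6 libraries, namely the perilipins Plin1 and Plin5, the droplet protein Cidec, the lipase Pnpla3 and the adipocyte regulator Pparg.

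In HOXA9 OFF, where 22.0% of all genes were called (13.0% higher and 8.97% lower), calls in these lists went both ways. Of 10 tested synthesis enzymes, 2 were higher and 1 lower. They were Mogat2, a monoacylglycerol acyltransferase of the Dgat2 family (log2 fold change 2.67 ± 0.45, edgeR FDR 0.00675), Agpat4 (1.55 ± 0.45, edgeR FDR 0.0399) and the glycerol-3-phosphate dehydrogenase Gpd1 (-1.37, edgeR FDR 0.0471). The call of Agpat4 was lost without any 1 of the control or HOXA9 OFF libraries, and that of Gpd1 without any 1 library other than HOXA9 OFF 2, where its log2 fold change was -2.13. That of Mogat2 was 3.41 without control 1 and 2.07 without HOXA9 OFF 1, and it stayed called. Of 13 droplet genes, 3 were higher, namely seipin (Bscl2, log2 fold change 1.08), the Pnpla2 activator Abhd5 (0.98) and Hsd17b11 (1.02), with edgeR FDR values of 0.00509, 0.00277 and 0.00355. The Pnpla2 inhibitor Hilpda was lower (-1.44, edgeR FDR 0.0043). The other Pnpla2 inhibitor of the list, G0s2, was at a log2 fold change of -0.05 (edgeR FDR 0.924).

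Against the same 22.0% of all genes, 3 of 9 tested uptake and activation genes were higher and 3 lower in HOXA9 OFF. The lysosomal lipase Lipa (log2 fold change 2.07, edgeR FDR 0.00169) and the acyl-CoA synthetase Acsl1 (1.26, edgeR FDR 0.00345) were higher, as was the transporter Slc27a4 (1.12, edgeR FDR 0.00511). The fatty acid binding protein Fabp5 (-1.95, edgeR FDR 0.0115) and the droplet-associated synthetase Acsl3 (-0.85, edgeR FDR 0.0032) were lower, and Acsl6 was at 0 counts in both HOXA9 OFF libraries against 8 and 22 in control, a call lost without control 2, HOXA9 OFF 1 or HOXA9 OFF 2. Of 11 oxidation genes, 1 was called higher and 3 lower, among the latter Cpt1a, the gate of mitochondrial entry (-1.15, edgeR FDR 0.00133). The other 2 lower genes were Acadl (-0.66, edgeR FDR 0.00458) and Acads, which was just past the fold limit (-0.59, edgeR FDR 0.0298) and was not called by DESeq2. Fabp5 also lost its call without control 2, which left Acsl3 as the 1 uptake gene called lower, and was at -2.75 without HOXA9 OFF 2. Of 7 transcription factors and coactivators, Mlx was higher (0.95, edgeR FDR 0.00214). The coactivator Ppargc1b was lower (-1.05, edgeR FDR 0.00907), a call lost without HOXA9 OFF 1. The medians of the 5 lists were -0.09, 0.11, -0.02, -0.06 and 0.23, against 0.93 for the 9 genes other than Dgat2.

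**Figure D4:**
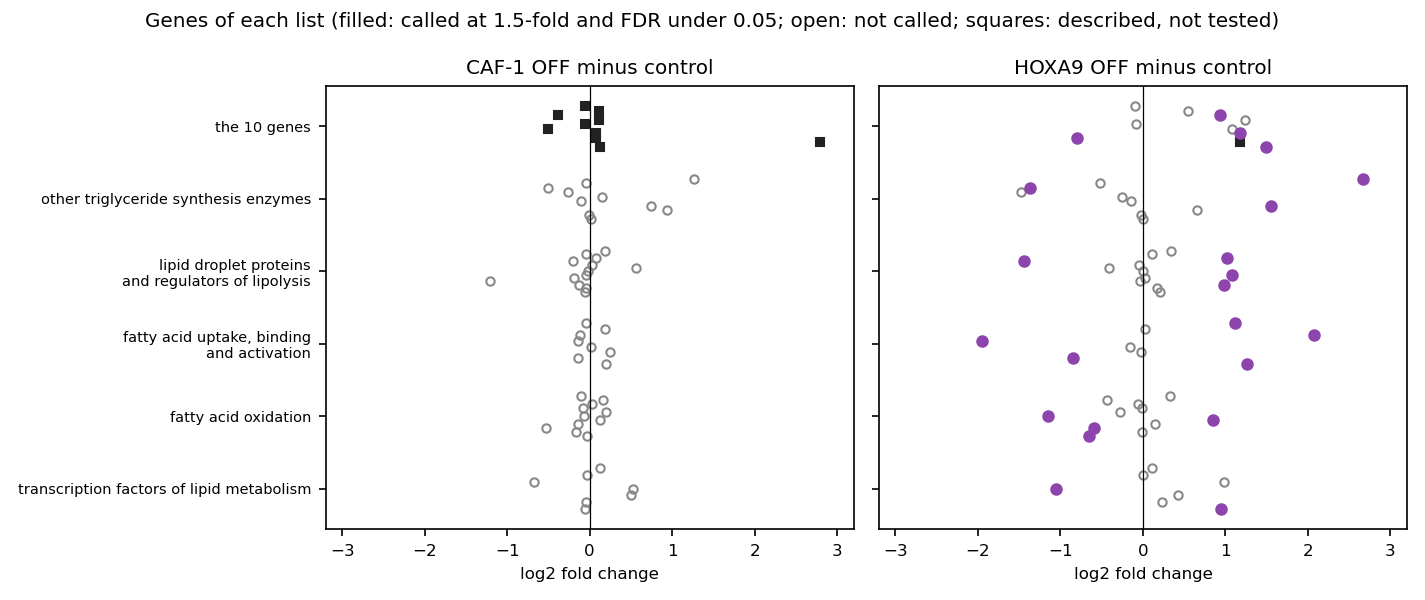
Each point is a tested gene, placed by its log2 fold change against control (x axis) in its list (y axis), for CAF-1 OFF (left) and HOXA9 OFF (right); filled points passed 1.5-fold and FDR under 0.05, black squares are described and not tested (the 10 genes on the left and Dgat2 on the right, because Dgat2 was chosen on CAF-1 OFF against control), and genes with at most 3 counts in both libraries of a group are not drawn. No gene of the other lists is filled on the left, and filled points lie on both sides of 0 in each list on the right.

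Between CAF-1 OFF and HOXA9 OFF directly, Mogat2 was lower in CAF-1 OFF (log2 difference -1.40, edgeR FDR 0.0486), a call lost without CAF-1 OFF 1, CAF-1 OFF 2 or HOXA9 OFF 1 (-0.79 without the last) and with library size alone as scaling. Over all genes tested, 9.56% were called higher in CAF-1 OFF and 12.6% lower. Of 13 tested droplet genes, Fitm2 (0.96) and Hilpda (1.24) were called higher in CAF-1 OFF. Bscl2 (-1.13), Abhd5 (-1.11) and Hsd17b11 (-0.94) were called lower. Of 9 tested uptake genes, Fabp5, Acsl3 and Acsl6 were called higher in CAF-1 OFF and Slc27a4, Acsl1 and Lipa lower. Of 11 tested oxidation genes, 3 were called higher (Cpt1a, Acadl and Hadhb) and 1 lower. Ppargc1b was called higher and Mlx and Rxra lower, and the call of Rxra was lost with DESeq2.

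The surroundings of Dgat2 on chromosome 7 were examined through the 4 nearest protein-coding genes on each side. On the lower side Uvrag, an autophagy gene 12519 bp away, stood at -0.17 ± 0.10 on the log2 scale after CAF-1 loss, relative to control. On the other side lies Mogat2, 36371 bp away, at 11.7 and 5.05 CPM in control and at 19.4 and 21.7 CPM after CAF-1 loss. Its log2 fold change of 1.27 ± 0.45 (95% interval 0.21 to 2.33) was not called (edgeR FDR 0.383), and without control 1 it was 2.02. In HOXA9 OFF, Mogat2 was at 72.4 and 35.6 CPM, so that Dgat2 was highest in CAF-1 OFF and Mogat2 in HOXA9 OFF. Next to it, Mtap6 had 23 and 13 counts in HOXA9 OFF, where control had 3 and 1 and CAF-1 OFF 5 and 7. Farther away, Gdpd5 (-0.20 ± 0.35), Prkrir (0.11 ± 0.11) and 2210018M11Rik (-0.09 ± 0.20) were near control in CAF-1 OFF. Wnt11 and Serpinh1 had too few counts to be tested.

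**Figure D5:**
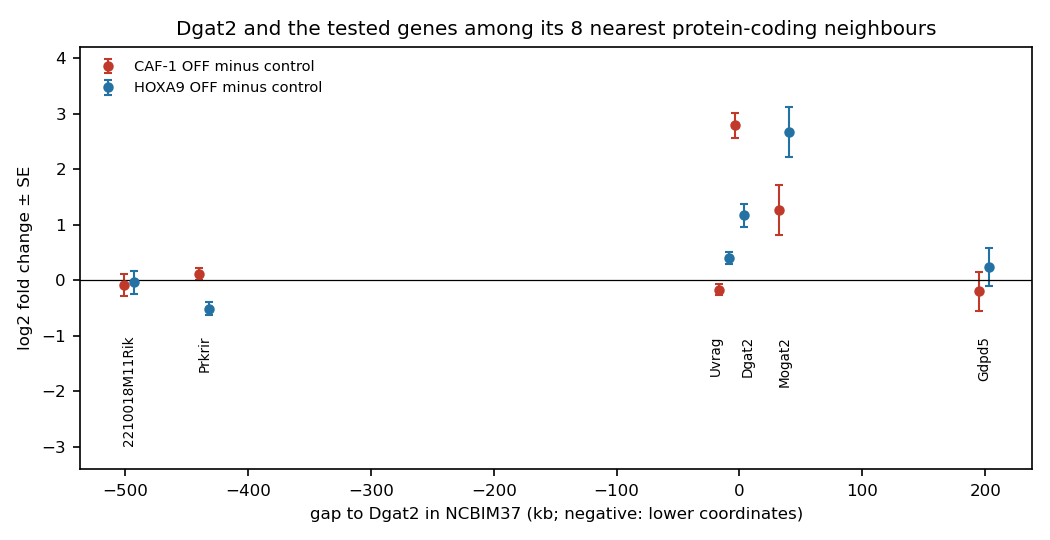
Log2 fold changes against control ± SE (y axis) of Dgat2 and its tested neighbours by the gap to Dgat2 in kb (x axis, negative for lower coordinates), for CAF-1 OFF (red) and HOXA9 OFF (blue). Genes with at most 3 counts in both libraries of a group are not drawn. Mogat2 lies above 0 in both conditions, and Uvrag, the nearest gene, is at -0.17 in CAF-1 OFF.

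Genes with a pattern like that of Dgat2 were found by the Euclidean distance of log2 CPM, centred per gene, over the 6 libraries. Of 9613 genes, the closest were Fbp1 (1.42), Ly6c2 (1.42), Flt1 (1.49), Tgm1 (1.54) and Gpr174 (1.57), against a median distance of 2.92. These 5 genes had log2 fold changes of 1.53 to 2.44 in CAF-1 OFF, which follows from the choice. In HOXA9 OFF, Ly6c2 was at 2.08 and the other 4 lay between -0.34 and -0.03, against 1.17 for Dgat2. Of the other members with a mean of at least 5 CPM, distances ran from 2.84 for Gpam to 3.59 for Plin2. Gpam lay under the median of all genes, and Lpin2 and Plin3 (both 2.92) were level with it at this precision.

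Markers of other cells moved beside these results. Summed CPM of 10 maturing neutrophil markers were 145 and 123 in control, 511 and 759 in CAF-1 OFF and 1047 and 592 in HOXA9 OFF, with 9 of 10 or all of them detected. In CAF-1 OFF, 0 of 9 tested were called by edgeR and 4 by DESeq2, where 4 and 192 of all genes were called. An unadjusted edgeR p under 0.05 was found for 5 of the 9. Mmp8 alone accounted for 332 and 630 CPM in CAF-1 OFF. Summed macrophage markers were 54.6 and 30.2 CPM in control, 44.4 and 55.3 CPM in CAF-1 OFF and 441 and 610 CPM in HOXA9 OFF, with C1qa at 0 counts in all libraries but HOXA9 OFF 2, which had 4. Emr1 made up much of the sum, at 40.7 and 19.6 CPM in control and 17.1 and 25.1 CPM in CAF-1 OFF. In CAF-1 OFF 5 of 6 tested macrophage markers had a log2 fold change above 0, with a median of 1.12. None of the 6 was called by edgeR or DESeq2, and 2 had an unadjusted edgeR p under 0.05 (Mrc1 and Cx3cr1). Mrc1, Cx3cr1 and Gpnmb, whose libraries were apart from control, were called higher without the filter, where 378 genes were called in all. Between the HOXA9 OFF libraries, 4 genes of the set (Dgat1, Dgat2, Lipe and Mgll) were higher in HOXA9 OFF 1, which had 3 counts of C1qb, and 6 (Gpam, Lpin1, Lpin2, Plin2, Plin3 and Pnpla2) in HOXA9 OFF 2. The part of the neutrophil and macrophage markers in the results was not tested. Adipocyte markers summed to 22.3 and 19.4 CPM in control, 21.4 and 23.0 CPM in CAF-1 OFF and 44.7 and 45.0 CPM in HOXA9 OFF, nearly all of it from Lipe. Plin1, Cidec, Lep and Pparg were at 0 throughout, whereas Cfd had 3 to 18 counts and the adipokine gene Adipoq 29 and 25 in control, 11 and 22 in CAF-1 OFF and 6 and 18 in HOXA9 OFF.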

How the data were processed

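Bulk RNA-seq of 6 libraries was analysed, 2 per group, with groups and replicate numbers taken from the titles. Per the labels, directional libraries were aligned by the authors to mouse mm9 with STAR and counted with HTSeq, and the deposited values are raw read counts per gene symbol. Annotation, strand setting and overlap mode are not given in the sources used here, so values of overlapping genes, sense or antisense, are uncertain. Reads that named no gene came to 5.946 to 8.257 per 100 gene counts (no feature) and 3.004 to 3.281 (ambiguous), alignments to several places to 89.59 to 106.7 per 100, and these lines were left out.

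The analysis used R 4.3.3 and edgeR 4.0.16, with filterByExpr (12460 genes), TMM scaling (factors 0.9543 to 1.028) and a quasi-likelihood fit to all 6 libraries with 1 mean per group and 3 residual degrees of freedom. Genes were called at 1.5-fold and a Benjamini-Hochberg FDR under 0.05 over all genes tested. CPM used TMM-scaled sizes, and exon lengths and coordinates came from GENCODE on NCBIM37, where 32885 symbols matched 1 gene. The labels do not say that replicates were separate cultures, so p-values may measure technical spread. The CPM given for 3 counts covers counting error only, whereas intervals of fold changes come from the edgeR fit and include the spread between replicates. Replicates differed beyond sampling noise (chi-square per degree of freedom at least 22.09). Same-numbered libraries were checked for pairing by the correlation of their deviations across genes. It was -0.24 for CAF-1 OFF and control, 0.48 for HOXA9 OFF and control and 0.03 for CAF-1 OFF and HOXA9 OFF. The titles name no shared culture or batch and the values differed between comparisons, so the numbers were not taken as pairs. Whether same-numbered HOXA9 OFF and control libraries shared a culture was not tested, and a replicate block was run as an alternative.

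Members and gene lists were chosen with earlier results of these data known. Named genes are the 10 members, up to 6 called genes of each list, the 4 nearest protein-coding genes on each side of Dgat2 and the 5 genes most like it. Genes named at 0 counts, uncalled marker genes, G0s2 and those called only without the filter were chosen after their values were seen. Values of 1 called list gene and 1 marker gene are not reported here. A second alias of Ldah belongs to another gene and was dropped. Alternatives were DESeq2 1.42.0 (size factors and Wald test), library size alone, no filter, a mean of 5 CPM, the 4 libraries compared, a replicate block, a stricter call at 2-fold and FDR under 0.01, each library left out and, added after seeing the data, a block with crossed numbers.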

Additional observations from a re-analysis of the deposited data

How the results depend on the processing

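Dgat2 kept a log2 fold change of 2.69 to 2.88 in CAF-1 OFF without any 1 library, but the number of members called there ranged from 0 to 1. It was 0 without CAF-1 OFF 2, control 1 or control 2, 0 with the replicate block (log2 fold change of Dgat2 2.80) and 0 at 2-fold and FDR under 0.01, and the cause was not tested. Dgat2 was chosen on this contrast, so these counts describe the fits and nothing is read from them. In HOXA9 OFF the 5 calls (Dgat2 counted) became 3 at 2-fold and FDR under 0.01 and ranged from 4 to 6 without 1 library. With the replicate block they were 6, since Lpin1 was added (log2 fold change 1.14, edgeR FDR 0.0436), and of the other named genes Agpat4 (edgeR FDR 0.0593) and Acads (0.0501) lost their calls with the block. Without a filter they were 7, with Lpin1 (edgeR FDR 0.0273) and Mgll (0.00181). Between CAF-1 OFF and HOXA9 OFF there were 6 calls (Dgat2 counted) with and without the block and 5 to 6 without 1 library.

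For CAF-1 OFF against control, calls over all genes numbered 4, and 192 by DESeq2, 378 without a filter, 9 in the 4 libraries compared, 2 with the block, 71 with the crossed block, 0 to 10 without 1 library and 0 under the stricter call. In HOXA9 OFF 2740 became 987 under the stricter call and 1602 to 2840 without 1 library, and between CAF-1 OFF and HOXA9 OFF 2755 became 948 and 1711 to 2718.

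Leaving out 1 library turned the sign of small log2 differences. Against control in CAF-1 OFF these ranged from -0.04 to 0.30 for Dgat1, -0.11 to 0.25 for Gpam, -0.94 to 0.10 for Lpin1, -0.04 to 0.29 for Plin3, -0.27 to 0.13 for Pnpla2, -0.01 to 0.20 for Lipe, -0.68 to 0.91 for Mgll, -0.31 to 0.11 for 2210018M11Rik and -0.49 to 0.17 for Gdpd5. In HOXA9 OFF Lpin2 ranged from -0.23 to 0.03 and G0s2 from -0.46 to 0.26, and between CAF-1 OFF and HOXA9 OFF Lpin2 from -0.09 to 0.18 and Pnpla2 from -0.16 to 0.24. With 2 libraries a group, differences of these sizes could not be placed on either side of 0, and Lpin1, at 117 counts or fewer per library, and Mgll, whose replicates disagreed, are the least precise of the 10.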
